A study of Homo sapiens with 6 samples.

Results

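Control VCaP cells are described here through 2 of the 6 arrays of the study, those of the cells that carried the NTC shRNA. VCaP, an established cell line, was derived from a human prostate cancer metastasis and carries a fusion of the TMPRSS2 and ERG genes. The study measured how gene expression changes when PRMT5, an arginine methyltransferase, is knocked down, and its other 4 arrays hold cells with PRMT5 shRNA 1 or PRMT5 shRNA 2. The control arrays were chosen by their titles alone, and no value of the knockdown arrays was used. Both control samples had received doxycycline, which is used to switch on inducible hairpins, at 100 ng/ml for 3 days, as had every other sample of the study. The cells grew in DMEM with fetal calf serum and non-essential amino acids, and the labels name neither an added androgen nor serum stripped of hormones. The labels do not say whether the samples came from separate cultures, so the spread between them may be technical. With 1 group there was nothing to compare it with, and no test was made.

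Luminal cells of the prostate secrete kallikreins, acid phosphatase and other proteins into the seminal fluid, and they depend on androgen and on lineage factors such as FOXA1, HOXB13 and GATA2. Basal cells lie beneath them and carry other keratins, and rare neuroendocrine cells are scattered between them. Most prostate cancers keep the luminal programme, and the TMPRSS2-ERG fusion places ERG, an ETS transcription factor that the prostate epithelium normally lacks, under the control of an androgen-driven promoter.

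Each array gave an intensity per probe set, and a gene was represented by its brightest probe set among those that the platform annotation pairs with exactly 1 symbol, which gave a level and a rank to 19775 genes. Intensity also depends on the sequence of the probes, so a rank places a probe set and does not order the amounts of mRNA of different genes. Values are given for replicate 1 and then replicate 2. The background level was set at the 95th percentile of 131 olfactory receptor, taste receptor and hair keratin-associated protein genes, which came to 8.15 on the replicate 1 array and 7.65 on the replicate 2 array. A gene above this level in both arrays is called above background, in 1 array split, and in neither array not above background. Of all genes, 13309 (67.3%) were above background, 1026 were split and 5440 were not above it. Because this level is low, a stricter intensity of at least 100 in both arrays is given beside it, which 8326 genes (42.1%) reached. All genes here include 2658 long noncoding RNA genes, while the lists below hold mainly protein-coding genes. Of the 16521 protein-coding genes, 74.1% were above background and 49.0% reached 100. The median gene had an intensity of 49.2 and 48.9, and 1931 genes reached 1000 in both arrays.

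The replicate arrays differed little at high intensity and much near the background. Across the 19775 genes Pearson's r between the arrays was 0.998 on the log2(intensity + 16) scale, a figure over genes of 1 pair of arrays, which are not independent. For genes with a mean of 1000 or more, 95% lay within 1.12-fold between the arrays, and from 100 to 300 within 1.23-fold. From the background level up to 16 that limit was 2.07-fold, and below the background it was 5.67-fold, so single values there carry little. The median coefficient of variation was 2.36% in the brightest of these classes and 29.1% below the background. The ratio of 3' to 5' signal, a measure of how complete the amplified RNA was, stood at 1.26 and 1.33 for GAPDH and at 4.58 and 4.88 for ACTB. For ACTB the signal was thus several times higher at the 3' end. Whether probe sets far from the 3' end of other genes read low for this reason was not tested.

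The genes that mark this cell line were bright in both arrays. KLK2, a secreted trypsin-like protease of the prostate, had an intensity of 4704.5 and 4700.3 and ranked 3 of the 19775 genes. Probe sets of several symbols are outside this ranking, and 1 shared by RPL13A and small nucleolar RNA genes read 4986 and 5040. The KLK2 level rests on part of its probe sets, and without sets of the suffixes _x, _s or _a KLK2 had a mean of 10.4. KLK3, which encodes prostate-specific antigen, stood at 1186 and 1169, at rank 1556. Both kallikreins are luminal secretory products and standard readouts of androgen action. ERG stood at 1367 and 1446, at rank 1136. TMPRSS2, a transmembrane serine protease whose promoter drives the fusion, stood at 1108 and 1341, at rank 1448. All 4 markers of the line lay in the brightest 10% of genes. PRMT5, the gene the study targets elsewhere, stood at 809.8 and 880.5 in these control cells, at rank 2508.

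**Figure D1:**
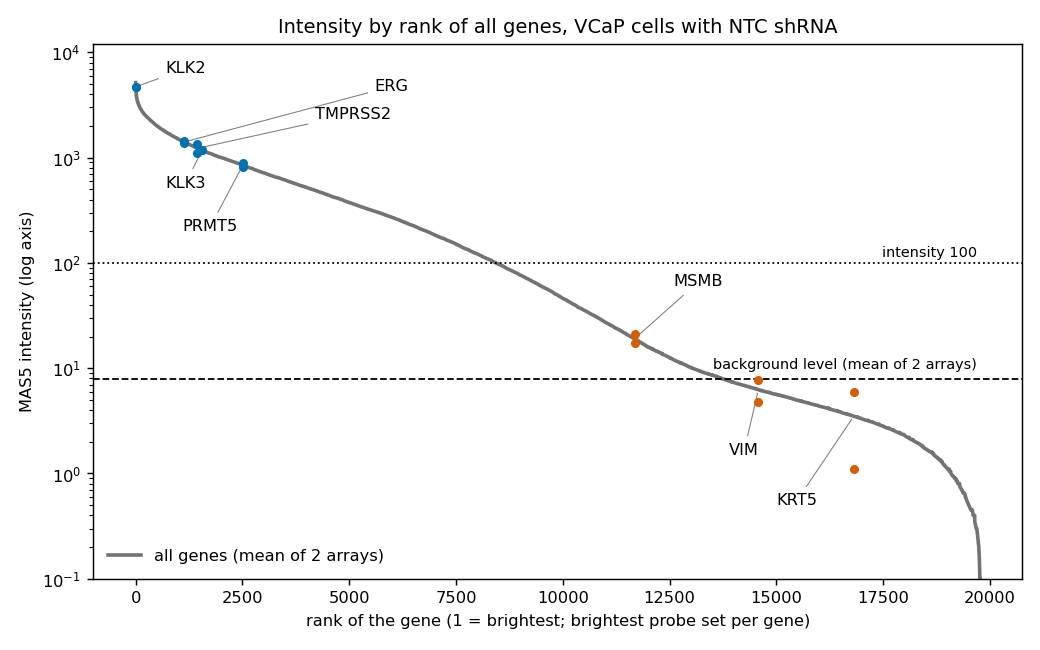
Mean MAS5 intensity of the 2 control arrays (log axis) against the rank of the gene, for 19775 genes, with circles for the value of each array for the named genes, the background level dashed and an intensity of 100 dotted. KLK2, ERG, TMPRSS2, KLK3 and PRMT5 lie on the bright end, MSMB lies between the lines, and VIM and KRT5 lie at or under the background level.

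Ribosomal protein genes were numerous among the brightest genes of these cells. EEF1A1, which brings aminoacyl-tRNA to the ribosome, was the brightest at 5038 and 5273, followed by the nuclear noncoding RNA MALAT1 at 5008 and 4865 and then KLK2. RPL41, RPL9, RPL6, RPL7, RPS6, RPL38, RPS23, RPL37, RPL24, RPL3, RPL35A, RPS16 and RPLP2, all ribosomal proteins, made up 13 of the 30 brightest, at mean intensities from 3595 to 4615. COX2, ND4 and ND2, which encode subunits of the respiratory chain on the mitochondrial genome, had means of 3998, 3669 and 3612. The other members of the 30 were ACTB, HNRNPH1, TPT1, HSP90AA1, HUWE1, HMGN2, ATP5F1E, CANX, NPM1, NAP1L1 and APP. Of the 100 brightest genes 37 encode ribosomal proteins and 5 lie on the mitochondrial genome, and together the 100 held 5.59% of the summed intensity. KLK2 was the only tissue-restricted secretory product among the 30 brightest.

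The luminal programme was broadly present. Of 27 measured genes of prostate luminal identity, 25 were above background and 22 reached 100 in both arrays, against 67.3% and 42.1% of all genes. Their median intensity was 750, against 49.2 over all genes, and 12 of the 27 lay in the brightest 10%. ACP3, the prostatic acid phosphatase, stood at 3245 and 3122.5. TRPM8, a cold-sensing cation channel of the prostate epithelium, stood at 2974.5 and 3131. Both lay among the 100 brightest genes. NDRG1, a stress- and androgen-responsive gene, stood at 2664 and 2859, and PMEPA1, a membrane inhibitor of TGF-beta signalling induced by androgen, at 2531 and 2790.0. STEAP2, a metalloreductase of the cell surface, stood at 2459 and 2403. RDH11, a retinol dehydrogenase, and FKBP5, a co-chaperone of steroid receptors, followed with means of 2078 and 2039. Each of these genes differed between the arrays by less than the range that 95% of genes of its level showed.

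Transcription factors of the luminal lineage were likewise well above background. FOXA1, a pioneer factor that opens chromatin, stood at 724 and 776. HOXB13, the homeobox factor of the prostate, stood at 698 and 725, and SPDEF, an ETS factor of glandular cells, at 436 and 465. GATA2, a further factor of luminal cells, was the brightest of the lineage transcription factors at 1934 and 2045. The surface transporter SLC45A3 stood at 714 and 709.5, and PRAC1, a small nuclear protein of prostate and distal gut, at 1602 and 1602.

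The members that were low are named in full. MSMB, beta-microseminoprotein, which is abundant in benign prostate fluid, stood at 17.2 and 20.9. TGM4, the prostate transglutaminase, stood at 18.8 and 13.9, and the calcium channel gene TRPV6 at 55.3 and 71.9, all above background but under 100. PCA3, a noncoding RNA used as a urine marker of prostate cancer, stood at 4.8 and 2.9 and was not above background. TARP stood at 7.8 and 8.8 and was split on its own probe set, but a probe set shared with TRGV9 and TRGC2 read 2146.5 and 2240.5, so its absence cannot be read from the value alone.

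KLK3 and KLK2 lie side by side on chromosome 19 and have similar promoters, shown here because both products were bright. The 250 bases before each annotated start, from RefSeq on GRCh38.p14, lie at chr19:50854665-50854914 for KLK3 and chr19:50873189-50873438 for KLK2, both on the plus strand. Capitals mark a stretch of 14 bases present in both.
KLK3: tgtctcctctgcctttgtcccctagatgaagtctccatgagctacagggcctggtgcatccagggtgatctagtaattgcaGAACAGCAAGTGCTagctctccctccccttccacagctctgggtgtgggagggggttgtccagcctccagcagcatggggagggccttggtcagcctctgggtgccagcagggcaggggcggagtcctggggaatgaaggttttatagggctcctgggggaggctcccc
KLK2: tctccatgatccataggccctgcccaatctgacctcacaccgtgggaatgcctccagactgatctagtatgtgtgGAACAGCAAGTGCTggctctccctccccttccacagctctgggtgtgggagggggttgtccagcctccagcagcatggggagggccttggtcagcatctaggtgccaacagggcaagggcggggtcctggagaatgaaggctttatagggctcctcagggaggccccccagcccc
The capitals begin 169 bases before the start in KLK3 and 175 bases before it in KLK2. Aligned to each other, the sequences shared 205 of 241 positions aligned without a gap (85.1%). The stretch in capitals was picked after the sequences were seen, and of the 15384 genes here with a promoter in the RefSeq table (300 bases, 250 before and 50 after the start, both strands) only these 2 held it. As background, the KLK3 stretch belongs to the androgen response element described for its proximal promoter. The short motif AGAACA, a single arm of that element, which overlaps the capitals in KLK3, was found in 4 of 21 luminal promoters (KLK3, PMEPA1, FKBP5 and TRPV6) and in 11.3% of all promoters. The strict palindrome of AGAACA, 3 bases of any kind and TGTTCT was found in 0 of the 15384 windows. A match of letters is a description and not a binding site.

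Genes of simple epithelia were present almost throughout. Of 36 measured, 35 (97.2%) were above background and 29 (80.6%) reached 100, against 67.3% and 42.1% of all genes. Their median intensity was 607. The surface protein CD24 stood at 3201 and 3067 and MAL2, which takes part in apical transport, at 3008 and 2983. EPCAM, an adhesion protein of simple epithelia, stood at 2554 and 2442, and CDH1, the epithelial cadherin, at 2127 and 1870.0. TJP1 and OCLN, tight junction proteins, had means of 1972 and 1824, and the tetraspanin CD9 a mean of 1874. CTNNB1, the cadherin partner, differed more between the arrays, at 2252 and 1739. The paired keratins of luminal cells stood at 1064 and 1122 for KRT18 and 229 and 222 for KRT8. KRT7, KRT20 and KRT23, keratins of other simple epithelia, were at or near the background, with means of 9.9, 8.75 and 4.3. KRT23 was the only one of the 36 not above background.

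Basal markers were mixed. Of 19 measured, 10 were above background and 5 reached 100 (52.6% and 26.3%, against 67.3% and 42.1% of all genes). KRT5, the defining keratin of basal cells, stood at 1.1 and 5.9, KRT15 at 2.4 and 1.1, and the desmosomal cadherin DSG3 at 1.2 and 0.5, none of them above background. The other members not above it or split were KRT16, NGFR, LAMB3, S100A2, TRIM29 and BCL11B. KRT14 stood at 37.2 and 45.8, above background and under 100. The bright members were ITGA6 (1716.5 and 1743), DST (1670.2 and 1652), DSC3 (759.5 and 760.4), JAG2 (367 and 402) and CD44 (222 and 203). ITGA6 and DST, an integrin subunit and a cytoskeletal linker, are also made outside the basal layer. None of the basal keratins measured reached 100.

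Neuroendocrine genes were above background about as often as genes in general, with 25 of 35 (71.4%) above it and 13 (37.1%) at 100 or more, against 67.3% and 42.1% of all genes. Both shares were below those of protein-coding genes, 74.1% and 49.0%. PEG10, a retrotransposon-derived gene, stood at 1173 and 1254, the vesicle protein SYT4 at 897 and 929.6, and INSM1, a zinc finger factor of endocrine cells, at 737.5 and 720.2. CPE, SCG3, UCHL1, SCGN and ENO2 had means from 318 to 450. The classical marker chromogranin A, encoded by CHGA, stood at 55.1 and 59, under 100. Chromogranin B, encoded by CHGB, stood at 236.7 and 261, and synaptophysin, encoded by SYP, at 246 and 242. The neuropeptides SST, VIP, NTS and GRP, the neuronal factor POU3F2 and the neuronal proteins STMN2, SYT1 and ELAVL4 were not above background, nor was NEUROG3, and ELAVL3 was split.

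Mesenchymal genes were low as a group. Of 20 measured, 7 (35%) were above background and 0 reached 100, against 67.3% and 42.1% of all genes. The median intensity was 6.38. VIM, the mesenchymal intermediate filament, stood at 4.8 and 7.7 and was split. Among the factors of epithelial-mesenchymal transition, ZEB1 stood at 3.4 and 2.2, ZEB2 at 6.1 and 5.1, SNAI1 at 2.4 and 0.4 and TWIST1 at 3.3 and 6.5, none above background. The brightest members, the matrix protein TNC and the collagen crosslinker LOX at 35.1 and 35, were both under 100. FN1, fibronectin, stood at 20.8 and 18.3.

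**Figure D2:**
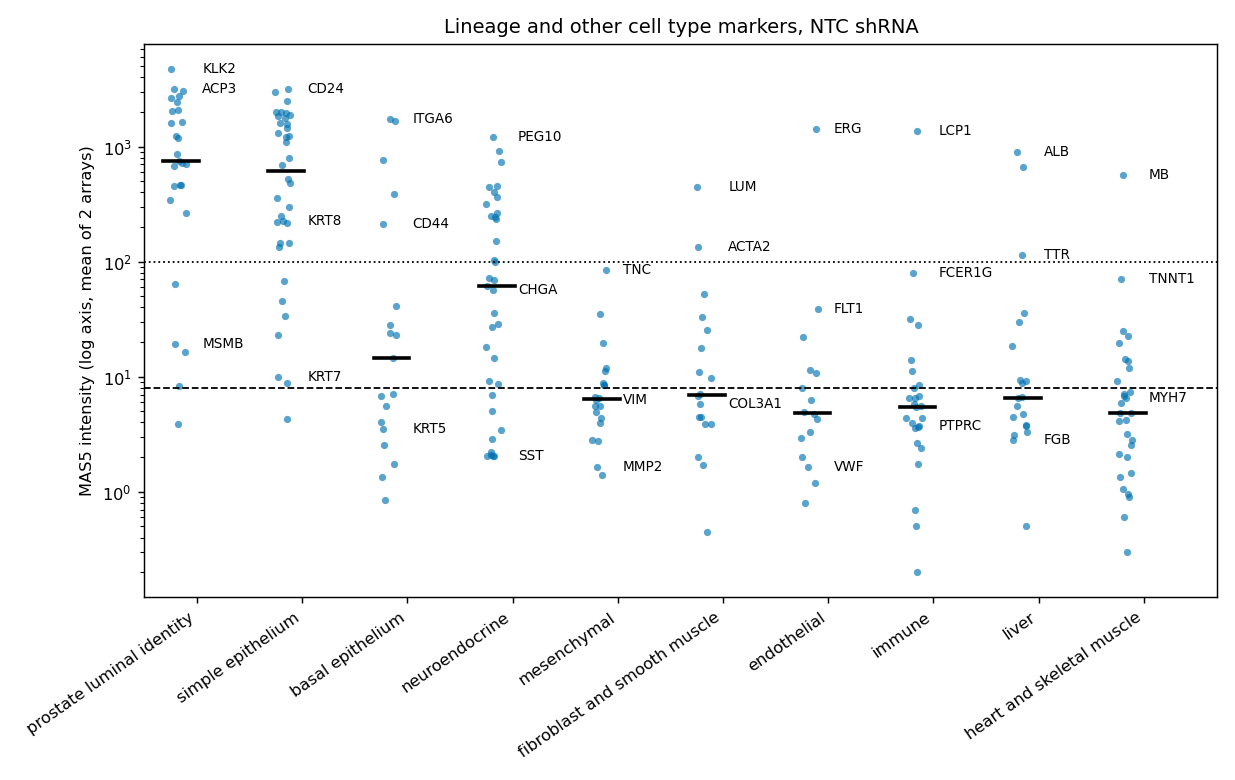
MAS5 intensity (log axis, mean of 2 control arrays) of the measured genes of 10 marker lists, with 1 point per gene, a bar at each list's median, the background level dashed and an intensity of 100 dotted. Luminal and simple epithelial genes lie mostly above 100, and most mesenchymal, stromal, endothelial, immune, liver and muscle genes lie near or under the background level.

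Few markers of other cell types were bright. Of 60 measured genes of fibroblasts and smooth muscle, endothelium and immune cells, 19 (31.7%) were above background and 4 (6.67%) reached 100, against 67.3% and 42.1% of all genes. Of the 26 immune markers 6 (23.1%) were above background, among them CD8A at 29.5 and 34.3. PTPRC, the pan-leukocyte phosphatase, stood at 4.2 and 3.2, CD3E at 0.1 and 0.3, and the endothelial genes VWF and CD34 had means of 1.65 and 0.80. The endothelial genes EMCN, KDR, SOX17, CDH5, TEK, TIE1 and CLDN5 were not above background either, and FLI1 and ROBO4 were split. Of the 18 fibroblast and smooth muscle genes 8 (44.4%) were above background, among them the collagen COL1A1 at 29.7 and 35.8. The fibroblast collagens COL3A1 and COL1A2 had means of 5.75 and 4.5 and were not above it. DCN, COL6A3, PDGFRA, PDGFRB, POSTN, LMOD1 and CNN1 of stroma and smooth muscle were also not above background, and DES was split. The 4 that reached 100 were ERG, LCP1, LUM and ACTA2. LCP1, plastin of white blood cells that many carcinoma lines also express, stood at 1386 and 1326 on its only probe set, while 16 of the 26 immune markers were not above background. LUM, a matrix proteoglycan, stood at 468.5 and 428 on its brightest probe set and at 27.5 and 21.6 on its other. ACTA2, smooth muscle actin, stood at 129 and 141, but its other probe sets read 4.7 and 4.2, and 3 and 1. ERG counts here as an endothelial gene and in this line as the product of the fusion, and of the other 15 endothelial genes none reached 100.

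Genes restricted to other tissues set a further reference. Of 127 such genes, 40 (31.5%) were above background and 9 (7.09%) reached 100, well under the shares of all genes. The exceptions of liver were ALB, APOH and TTR. ALB, serum albumin, stood at 831 and 944, with 2 other probe sets at 432 and 422 and at 330.3 and 321 and a further one at 3.9 and 3.1. APOH, a plasma glycoprotein, stood at 635 and 683, and TTR, the thyroxine carrier, at 117 and 109. The remaining liver genes were under 100, and the fibrinogen genes FGA, FGB and FGG had means of 4.45, 2.8 and 3.8 and F2, prothrombin, a mean of 0.50. AHSG, HP, TF, APOC3, APOA2, ARG1 and SERPINC1 were not above background either. MB, myoglobin, stood at 555 and 587, while the troponins, myosins and creatine kinase CKM of striated muscle were all under 100, with TNNT1 the highest at 68.9 and 73.4. Among neural genes NEFL, the light neurofilament, stood at 978 and 963.5 and MBP, a gene first known from myelin, at 836 and 896, beside MOG at 4.9 and 4.6 and GFAP at 4.4 and 6.7. MITF, which is also made outside melanocytes, stood at 194.5 and 191, and the melanocyte enzyme TYR at 5.7 and 4.7. Of 28 cancer-testis genes 6 (21.4%) were above background and 2 (7.14%) reached 100, against 67.3% and 42.1% of all genes. The 2 were SYCP3, a protein of meiotic chromosomes, at 452 and 383 and SSX1 at 143 and 219.6. The MAGE, PAGE and GAGE genes measured on their own were at or near the background, with MAGEA6 the highest at 11.3 and 13.9.

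**Figure D3:**
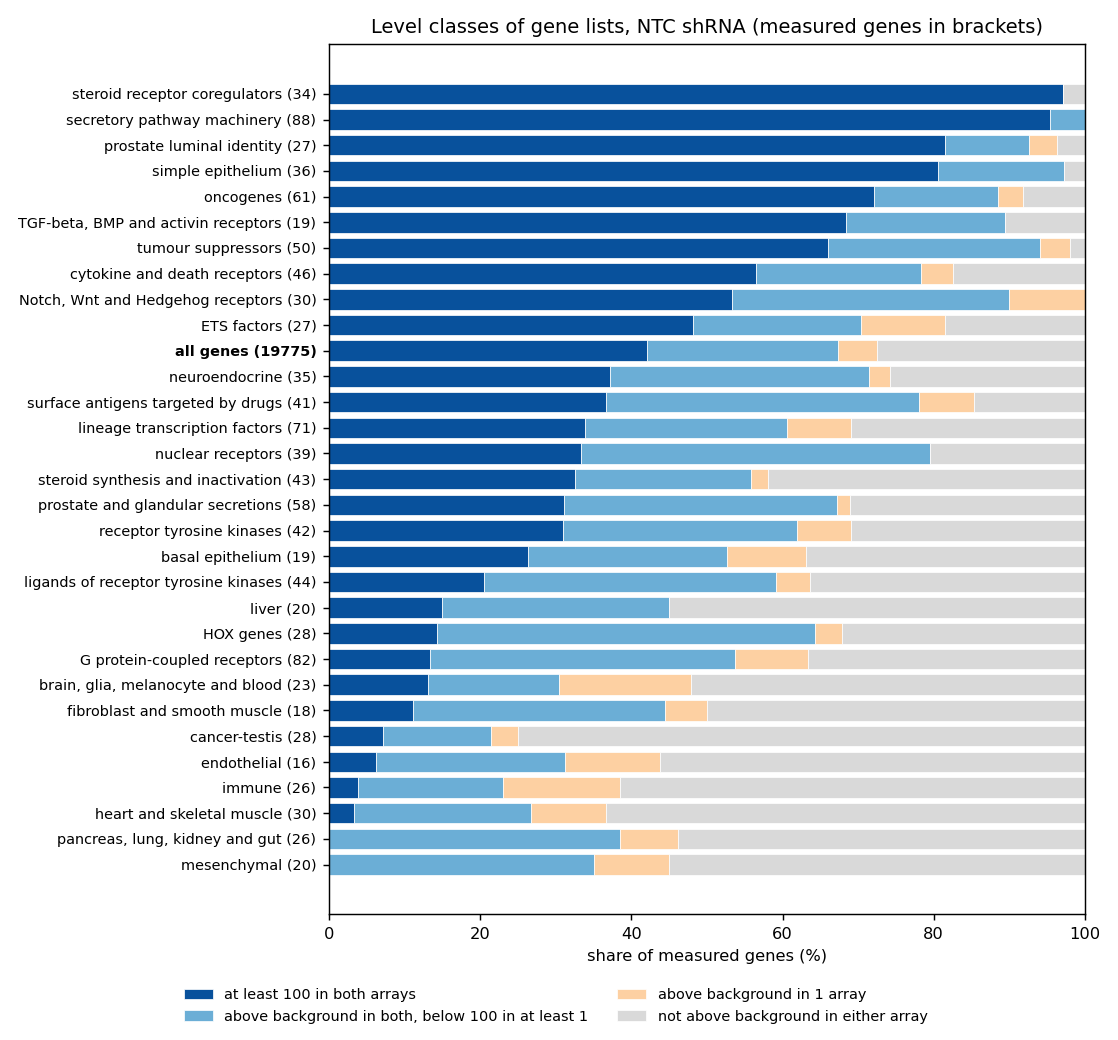
Share of the measured genes (%) of 30 gene lists and of all genes in each of 4 level classes, ordered by the share with an intensity of at least 100 in both control arrays. Steroid receptor coregulators, secretory pathway machinery and luminal genes lie at the top, and mesenchymal genes and genes of pancreas, lung, kidney and gut, with none at 100, at the bottom.

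Nuclear receptors are ligand-activated factors that bind steroids, thyroid hormone, retinoids or lipids. Of 39 measured, 31 (79.5%) were above background, against 67.3% of all genes. At 100 or more were 13, a lower share (33.3%) than that of all genes (42.1%). NR1D2, a heme-binding repressor of the circadian clock, was the brightest at 1275 and 1235. THRB, a thyroid hormone receptor, stood at 791 and 845.5, NR2C2 at 657 and 670.0, and the orphan receptor ESRRA at 614 and 658. RXRA, NR2F6, VDR and NR2C1 followed, with means of 595, 466, 398 and 327. The steroid receptors measured were all under 100. The glucocorticoid receptor NR3C1 stood at 88.4 and 89.5, the progesterone receptor PGR at 59.8 and 61.8 and the mineralocorticoid receptor NR3C2 at 60.8 and 58.7. ESR1, the main estrogen receptor, stood at 7.9 and 6.8 and was not above background, and ESR2 stood at 14.4 and 9.7. PPARG, NR5A1, RXRG, NR4A3, NR1I3, NR2E1 and NR0B2 were not above background either, with means from 0.80 to 5.15.

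The proteins that work with steroid receptors were almost all bright. Of 34 measured coregulators and chaperones 33 (97.1%) reached 100, against 42.1% of all genes. The same 33 were above background, against 67.3% of all genes, and the median was 885. The heat shock protein HSP90AA1, which holds steroid receptors ready to bind hormone, stood at 4067 and 4022, its partner PTGES3 at 3074 and 3117, and HSP90AB1 at 2529 and 2415. The immunophilin FKBP4 stood at 2223 and 2329.5, and FKBP5 was given above. The deacetylases HDAC1 and HDAC2, the co-chaperone DNAJA1 and STIP1 had means from 1751 to 2028. MAGEA11, a coregulator of the cancer-testis family, was the exception at 3.7 and 3.3.

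**Figure D4:**
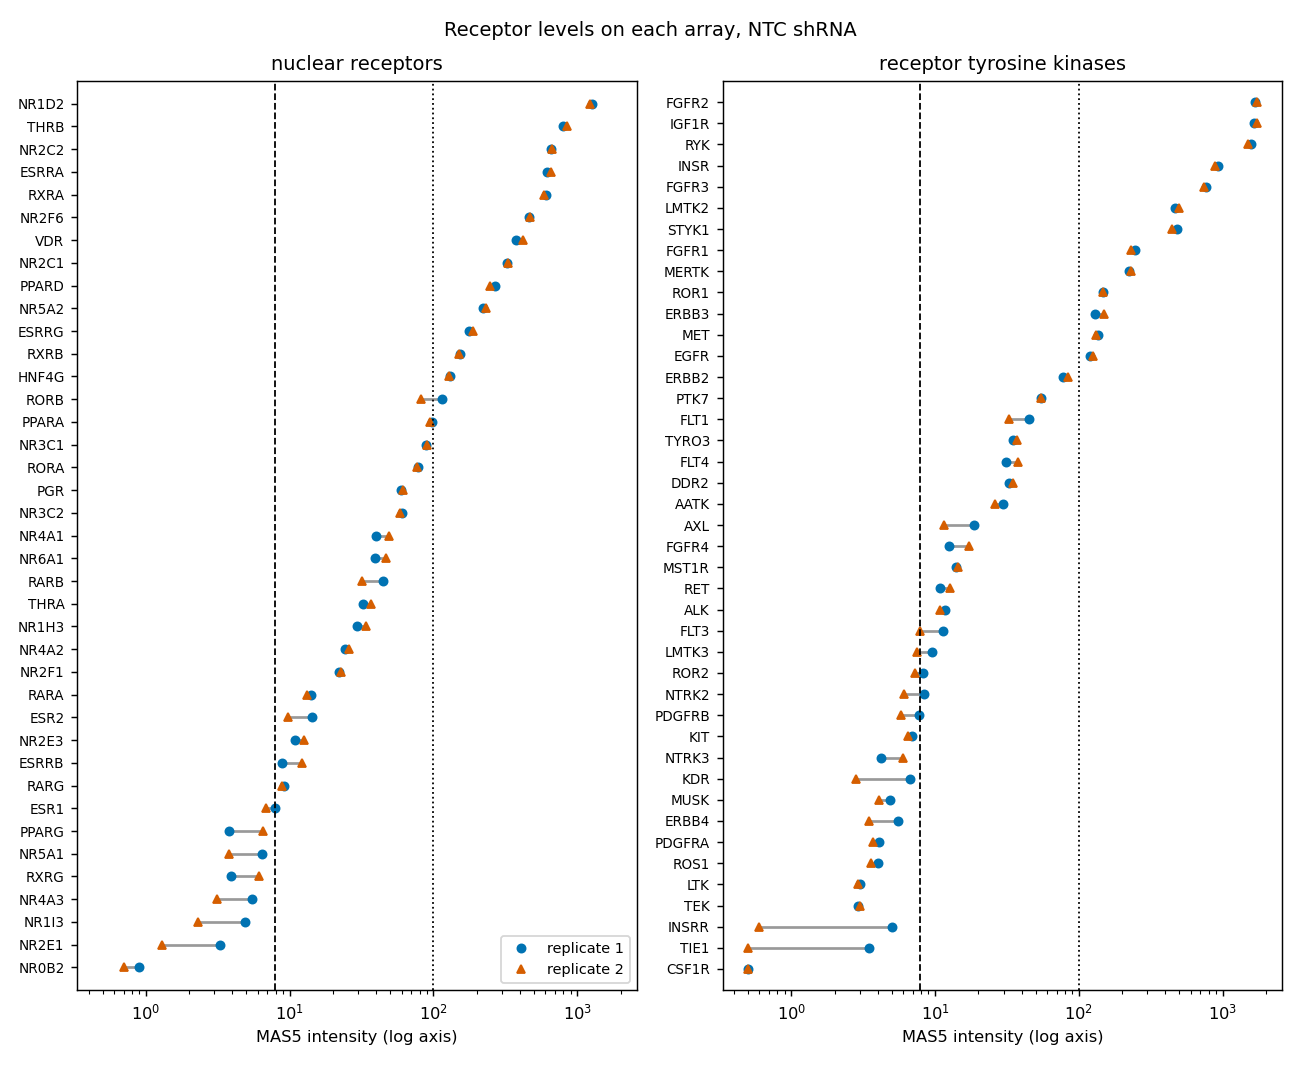
MAS5 intensity (log axis) on each control array of 39 nuclear receptors and 42 receptor tyrosine kinases, with a line joining replicate 1 (circle) and replicate 2 (triangle), the background level dashed and an intensity of 100 dotted. NR1D2 and FGFR2 lead their panels, and the arrays lie close together above the background level and apart below it.

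Receptor tyrosine kinases carry growth factor signals across the membrane, and 26 of 42 measured were above background and 13 reached 100 (61.9% and 31.0%, against 67.3% and 42.1% of all genes). FGFR2, a receptor of fibroblast growth factors, stood at 1691 and 1724 and IGF1R, the receptor of insulin-like growth factor, at 1664 and 1735. The Wnt coreceptor RYK stood at 1584 and 1511, and the insulin receptor INSR at 928 and 891. FGFR3, LMTK2, STYK1 and FGFR1 had means of 758, 483, 463 and 239. Of the ERBB family, ERBB3 at 129.5 and 149.9 and EGFR at 119.9 and 126 reached 100, and ERBB2 stood at 77.5 and 84.7. ERBB4 stood at 5.5 and 3.5 and of the receptors of stroma and vessels PDGFRA, PDGFRB, KDR, TEK and TIE1 had means from 2 to 6.75, none of them above background. FLT1, FLT4 and DDR2, of the same kind, were above background and under 100, at 45.2 and 32.5, 31.2 and 37.6 and 32.7 and 34.9. The FGFR2 value rests on 1 of 11 probe sets, since the next brightest read 65.2 and 71, and the dimmest 0.5 and 0.7.

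Of 44 measured ligands of these receptors, 26 were above background and 9 reached 100 (59.1% and 20.5%, against 67.3% and 42.1% of all genes). FGF13, an intracellular member of the fibroblast growth factor family, was the brightest at 1881 and 1836. HGF, the ligand of MET and usually a product of stromal cells, stood at 1087 and 959, and the dimmest of its 5 probe sets had a mean of 217. MET itself stood at 136 and 132. VEGFA, the main angiogenic factor, stood at 883 and 778.5, PDGFA at 616.5 and 643, PDGFC at 571 and 561, HBEGF at 274 and 306, MDK at 221 and 238 and KITLG at 149.8 and 146. The other ligands spanned the range down to FGF10 at 0.2 and 0.5. KITLG stood above 100 while its receptor KIT, at 6.9 and 6.5, was not above background, and IGF1 stood at 13.9 and 10.3, above background and under 100.

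Receptors of the TGF-beta family and their SMAD mediators were present in 17 of 19 measured cases, with 13 at 100 or more (89.5% and 68.4%, against 67.3% and 42.1% of all genes). BMPR1B, a type I receptor for bone morphogenetic proteins, stood at 1180.1 and 1179, and SMAD5, which it phosphorylates, at 1013 and 909. The activin receptors ACVR2A and ACVR1B had means of 942 and 769, SMAD2, SMAD9, BMPR2 and ACVR2B means from 636 to 917. TGFBR1, the type I receptor for TGF-beta, stood at 610.5 and 566, while TGFBR2, the type II receptor that binds the ligand, stood at 13.8 and 14.7, above background and under 100. ACVRL1 and AMHR2, the receptors of endothelium and of anti-Mullerian hormone signalling, were not above background.

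Of 46 cytokine and death receptors with their JAK and STAT mediators, 36 were above background and 26 reached 100 (78.3% and 56.5%, against 67.3% and 42.1% of all genes). The death receptors TNFRSF10B (1208 and 1182) and FAS (1172.5 and 1192) were the brightest, and IL6ST, the shared signalling chain of the interleukin-6 family, stood at 1153 and 1103. IFNGR2, LIFR, IFNAR1, TNFRSF21 and STAT6 had means from 648 to 1098. TNFRSF1B, CSF2RB, CSF3R, IL7R, CD40, TNFRSF10D and CSF2RA, most of them receptors of blood cells, were not above background, and TNFRSF10C and TNFRSF12A were split. LEPR was not above background on its own probe sets, at 3.3 and 3.5, but read 136 and 149 on a probe set shared with LEPROT. JAK2 stood at 9.5 and 11.5, near the background, and JAK1 at 177 and 177.

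For Notch, Wnt and Hedgehog signalling, 27 of 30 measured receptors and membrane ligands were above background and 16 reached 100 (90% and 53.3%, against 67.3% and 42.1% of all genes). The Notch ligand JAG1 stood at 1726 and 1633 and the receptor NOTCH2 at 1563 and 1528.5, beside NOTCH1 at 70.4 and 70.4. The Wnt receptor FZD4 stood at 1392 and 1484, with LGR4, FZD5 and LRP6 at means of 1054, 755 and 720. The Hedgehog receptor PTCH1 stood at 698 and 667, and its partner SMO at 40.3 and 38.3. ROR2, DLL4 and LGR6 were split.

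G protein-coupled receptors had the lowest share above background of the receptor lists described here, 44 of 82, and 11 reached 100 (53.7% and 13.4%, against 67.3% and 42.1% of all genes). The brightest were the orphan receptor GPR160 at 1723 and 1602 and the beta-1 adrenergic receptor ADRB1 at 1327 and 1308. The nucleotide receptor P2RY1, the somatostatin receptor SSTR1, the chemokine scavenger ACKR3 and the angiotensin receptor AGTR1 had means of 815, 489, 431 and 373. VIPR1 and OPRK1 followed, at 229 and 192. OR51E2, an olfactory receptor known from prostate epithelium, stood at 3.2 and 2.3 and was not above background, and OR51E1 at 10.2 and 4.5 was split. GRPR, the gastrin-releasing peptide receptor, stood at 72 and 79.6.

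Of surface proteins that drugs or imaging agents target, 32 of 41 measured were above background and 15 reached 100 (78.0% and 36.6%, against 67.3% and 42.1% of all genes). After KLK2, the brightest were the zinc transporter SLC39A6 at 2756 and 2807.5, EPCAM, STEAP2 and STEAP1 at 1577 and 1659.7. FOLH1, which encodes prostate-specific membrane antigen, stood at 437 and 479.9 on its own probe sets and at 1349.6 and 1331 on a probe set shared with FOLH1B. CD46, CD47 and SLC44A4 had means of 1339, 1042 and 686. PSCA, the prostate stem cell antigen, stood at 21.2 and 21.2, DLL3 at 68 and 55.9 and CD274, the ligand of PD-1, at 28.6 and 27.3. SSTR2, CD38, CD70, LRRC15, SLC34A2 and MUC16 were not above background, and CDH6, TPBG and MSLN were split.

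Among 27 ETS factors, which share the DNA-binding domain of ERG, 19 were above background and 13 reached 100 (70.4% and 48.1%, against 67.3% and 42.1% of all genes). Among protein-coding genes the shares were 74.1% and 49.0%. The epithelial factor EHF was the brightest at 2411 and 2312, ahead of ERG. GABPA, a factor of housekeeping promoters, stood at 1039 and 975.5, ELK4 at 838 and 882, and the epithelial ELF3 at 700.3 and 683. ETS2, ETV3 and ELF5 had means of 579, 568 and 516, and ELF5 rests on 1 probe set, since its other read 8.1 and 9.9. ETV1, ETV4, ETV5 and FLI1 are among the members that other prostate cancers carry as fusion partners. None of them stood above background in both arrays, with ETV1 at 3.5 and 3, ETV4 at 7.1 and 3.9, ETV5 at 7.7 and 9.2 and FLI1 at 6.2 and 9.8. ETV1 and ETV4 were not above background and ETV5 and FLI1 were split. SPI1, SPIB, ETV7 and SPIC completed the members not above it or split.

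ERG read above background on each of its 4 probe sets, at 1367 and 1446, 981 and 995, 470.4 and 478, and 283 and 289. TMPRSS2 was bright on 1 of 4, and the others read 99 and 137.5, 64.1 and 72.7, and 55.2 and 46.9. The fusion joins these genes on chromosome 21, and in some tumours the stretch between them is lost. RefSeq places 50 annotated genes there, of which 21 were measured, 15 were above background and 10 reached 100. These counts lie near the shares of genes in general, 67.3% and 42.1% of all genes and 74.1% and 49.0% of protein-coding genes. HMGN1, a nucleosome-binding protein, stood at 2943 and 3113, GET1, a factor of membrane protein insertion, at 1375 and 1291.5, and BRWD1, a bromodomain protein, at 939 and 872. FAM3B, ETS2, BACE2, B3GALT5, PSMG1, IGSF5 and PCP4 also reached 100, with means from 244 to 864. DSCAM stood at 16 and 22.7, and the interferon-induced MX1 at 15.5 and 9.4 and MX2 at 6.7 and 4.1. SH3BGR, BRWD1-AS2 and B3GALT5-AS1 were above background and under 100, LINC00323 and PLAC4 were split, and LINC01700, LCA5L and DSCAM-AS1 were, like MX2, not above it. These RNA levels do not give the number of gene copies.

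Of 61 measured oncogenes, 54 were above background and 44 reached 100 (88.5% and 72.1%, against 67.3% and 42.1% of all genes), with a median intensity of 399. XPO1, the nuclear exporter, stood at 2817 and 2836, IDH1 at 2372 and 2370.5, the mitotic kinase AURKA at 2193 and 2126 and MDM2, which degrades p53, at 2138 and 2151. CTNNB1, DEK, E2F3 and HMGA1 had means from 1591 to 1996. MYC stood at 622 and 708, CCND1, the G1 cyclin, at 1569 and 1496 and its kinase CDK4 at 1431 and 1544. EZH2, the histone H3 methyltransferase of Polycomb, stood at 783 and 717. The relatives CCND2 (5 and 6.4), CDK6 (7.3 and 6.4) and MYCN (7.1 and 6.4) were not above background, nor were FOS and GLI1, and SOX2 and LIN28A were split. Of the remaining members of the cyclin D and MYC families, CCND3 stood at 158.5 and 152 and MYCL at 19.1 and 26.

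Tumour suppressor genes were as widely present. Of 50 measured, 47 were above background and 33 reached 100 (94.0% and 66.0%, against 67.3% and 42.1% of all genes). CDH1, FOXO3, FOXP1, SPOP, FAT1, ZFHX3, KMT2D and KMT2C were the brightest, with means from 1180 to 1999. SPOP, a ubiquitin ligase adaptor often mutated in prostate cancer, stood at 1458 and 1338, and RB1, the retinoblastoma protein, at 889 and 918. The inhibitors of cyclin-dependent kinases spanned a wide range, with CDKN1B at 1092 and 1064.5, CDKN1A at 459.5 and 412, CDKN2A at 37.1 and 40.7 and CDKN2B at 10 and 9.4. GSTP1, a glutathione transferase that is silenced by promoter methylation in most prostate cancers, stood at 4.7 and 3.6 and was not above background. NF1 and PDCD4 were split on their own probe sets, at 11.7 and 5.3 and 8.8 and 7.1, but bright on shared ones, at 1147 and 1028 for the set shared with NF1P9 and 2101 and 2059.5 for the set shared with MIR4680. An RNA level says nothing of mutations in these genes.

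HOX genes, which set position along the body axis, were above background in 18 of 28 measured cases and reached 100 in 4 (64.3% and 14.3%, against 67.3% and 42.1% of all genes). Those were HOXC6 at 1058 and 968, HOXB13, HOXC4 at 599 and 552 and HOXD8 at 167 and 177.5. HOXD13 and HOXC11 had means of 94.8 and 75, and HOXC5 and HOXC13 followed at 36.1 and 30.4. HOXB13 lies at the end of its cluster, and of its neighbours HOXB2, HOXB4 and HOXB8 were not above background and HOXB9 read 9.5 and 11.2. HOXC12, HOXD1, HOXD9, HOXD10, HOXD11 and HOXD12 were not above background, and HOXB6 was split.

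Lineage transcription factors of the body at large were above background in 43 of 71 cases, and 24 reached 100 (60.6% and 33.8%, against 67.3% and 42.1% of all genes). After GATA2, the brightest were GRHL2 (1845 and 1681), a regulator of epithelial junctions, TBX3 (1608.5 and 1723.5), SOX4 (1357 and 1395) and SOX9 (1183 and 1265). TEAD1, TFAP2C and TFAP2A had means of 1038, 1031 and 858. GATA3, the factor of urothelium and breast, stood at 12.7 and 15.8, and GATA1 and GATA4 at 7 and 7 and 7.1 and 5, not above background. PAX1 and PAX9, factors of the pharynx and skeleton, reached 100, at 118 and 113 and 326 and 295, as did the B-cell factor PAX5 at 113 and 111.5, while MYOD1, NKX2-5, ISL1, PAX3, PAX4 and PAX7 were not above background.

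A minority of secreted proteins was bright. Of 58 measured prostate and glandular secretions, 39 (67.2%) were above background, the share of genes in general, and 18 (31.0%) reached 100, against 42.1% of all genes. Protein-coding genes had higher shares, 74.1% and 49.0%. Behind KLK2 and ACP3 came AGR2, a disulfide isomerase of mucous cells, at 2855 and 2872, and CRISP3, a cysteine-rich secretory protein overproduced in prostate cancers with ERG fusions, at 2763 and 2735. NPY, neuropeptide Y, stood at 2125 and 2187, NPC2, a secreted cholesterol carrier, at 1116 and 1096.5, and CLU, clusterin, at 819 and 901. KLK4 stood at 334 and 351.5, KLK15 at 58.8 and 42.5 and KLK11 at 2 and 4.7, the last not above background. The semenogelins SEMG1 and SEMG2, made by seminal vesicles, stood at 4.8 and 2.5 and 4.7 and 4.1, and PIP, SCGB2A2, SCGB1A1, TFF2, LCN2, MUC2 and MUC6 were likewise not above background, with means from 1.15 to 5.45. The secreted matrix protein SPON2 was measured only together with another symbol, at 1547 and 1592.5.

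The machinery that carries proteins through the endoplasmic reticulum and Golgi was detected throughout. All 88 measured members were above background and 84 (95.5%) reached 100, against 67.3% and 42.1% of all genes. Of the 88, 45 lay in the brightest 10%, and the median intensity was 1030.3. The lectin chaperone CANX was the brightest at 3749 and 3745, and the cargo receptor TMED2 stood at 3172 and 3396. SEC11A, a catalytic subunit of the signal peptidase, stood at 3042 and 2993, and the disulfide isomerase PDIA3 at 2658 and 2659.6. HSPA5, the main chaperone of the endoplasmic reticulum, stood at 2589.8 and 2615, the coat GTPase SAR1A at 2501 and 2483, SRP14 of the signal recognition particle at 2356 and 2484 and STT3B of the oligosaccharyltransferase at 2538 and 2253. CREB3L4, a membrane-bound factor known from the prostate, stood at 843 and 895, and its relatives CREB3L1 and CREB3 at 78.1 and 71.6 and 80.1 and 103. The lowest member, ARF1, read 9 and 12.8 on its own probe sets but 642 and 696 on a probe set shared with MIR3620.

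Some promoters of this machinery carry a known stress motif, and 2 are printed to show it on each strand. The endoplasmic reticulum stress element, CCAAT followed by 9 bases of any kind and CCACG, contains a CCAAT box, is recognised by the factors ATF6 and XBP1, and was searched on both strands. It was found in 6 of 78 machinery promoters (7.69%), those of HSPA5, HSP90B1, CALR, CANX, ERO1B and XBP1, and in 16 of all 15384 (0.104%). The motif was known beforehand and the list was chosen by hand, so these shares are a description and not a test. The 250 bases before the start, from RefSeq on GRCh38.p14 and read along the gene, lie at chr9:125241344-125241593 on the minus strand for HSPA5 and at chr19:12938359-12938608 on the plus strand for CALR. Capitals mark the element, which runs in the same direction as the gene in HSPA5 and in the opposite one in CALR.
HSPA5: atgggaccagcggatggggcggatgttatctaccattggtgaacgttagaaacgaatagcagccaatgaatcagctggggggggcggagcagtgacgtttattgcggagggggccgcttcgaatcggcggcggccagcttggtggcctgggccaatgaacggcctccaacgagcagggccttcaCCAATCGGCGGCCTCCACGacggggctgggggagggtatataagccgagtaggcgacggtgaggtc
CALR: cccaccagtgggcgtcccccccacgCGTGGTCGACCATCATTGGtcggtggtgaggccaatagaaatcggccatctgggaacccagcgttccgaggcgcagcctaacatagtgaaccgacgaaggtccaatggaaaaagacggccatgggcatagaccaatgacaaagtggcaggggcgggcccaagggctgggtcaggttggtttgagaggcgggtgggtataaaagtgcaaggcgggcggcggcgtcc
The first capital lies 66 bases before the start in HSPA5 and 225 bases before it in CALR. The CCAAT box alone was found in 36.1% of all promoters. CALR, a lectin chaperone like CANX, stood at 2089 and 1947, and the genes with the element ranged from ERO1B at 373 and 345 to CANX. The factors themselves stood at 847 and 749 for XBP1 and 286 and 280.0 for ATF6. These arrays give levels and no measure of stress.

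The composition of these promoters was described in the same windows. The letters TATAAA were found on either strand in 12 of 41 promoters of secretions (29.3%) and in 4 of 78 of the machinery (5.13%), against 8.76% of all promoters. The ratio of observed to expected CpG was 0.0719 for KLK3 and 0.109 for KLK2 in the 300 bases, and 0.972 for HSPA5 and 0.906 for CALR. Across all genes this ratio went with detection. Its median was 0.833 for the 10810 genes above background and 0.331 for the 3852 not above it. In the fifth of genes with the lowest ratio 33.0% were above background and 11.2% reached 100, and in the fifth with the highest ratio 89.7% and 67.3%. KLK2 and KLK3 were bright genes in the fifth with the lowest ratio. The share is a description over genes of these arrays, which share probe design and libraries.

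Of 43 measured genes of steroid synthesis and inactivation, 24 were above background and 14 reached 100 (55.8% and 32.6%, against 67.3% and 42.1% of all genes). On the route from cholesterol to androstenedione, STAR stood at 5.6 and 1, CYP11A1 at 1.9 and 1 and CYP17A1 at 1.8 and 2.4. On the same route HSD3B1 stood at 6.2 and 6 and HSD3B2 at 2.2 and 3.2. None of these was above background. Several enzymes that interconvert androgens reached 100. HSD17B4 stood at 1842 and 1715, AKR1C3, which makes testosterone from androstenedione, at 947 and 981, and HSD17B6 at 725 and 659.7. The 5-alpha-reductase SRD5A1, which makes dihydrotestosterone, stood at 704 and 592, while SRD5A2, the main form of normal prostate, stood at 7 and 5.1 and was not above background. FDX1, HSD17B11 and CYB5A had means of 1072, 955 and 948. UGT2B15, UGT2B28 and UGT2B17, which inactivate androgens by adding glucuronic acid, stood at 507 and 511, 206 and 208.5 and 123 and 112, and since this family is highly alike in sequence, its probe sets may share signal.

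The share of genes detected went with the number of their probe sets. Genes with 1 probe set were above background in 51.3% of 9252 cases, and genes with 4 or more in 90.3% of 2728. The list shares given above were not matched for this number, in which the lists differ. Only 8 of the 39 nuclear receptors had 1 probe set, and 3 of these (37.5%) were above background. Of 16 neuroendocrine genes with 1 probe set, 11 (68.8%) were. Among the 5910 genes of several probe sets that reached 100, the brightest probe set exceeded the dimmest by a median of 18.6-fold, and in 1675 of them the dimmest lay below background. KLK2 shows both sides of this, with 3 probe sets at 4704.5 and 4700.3, 2487 and 2630.3, and 2364 and 2465, and the fourth at 12 and 8.8. KLK3 read 1186 and 1169, 1096 and 1166, and 702 and 716, so its probe sets lay closer together. ACP3 read high on each of 3 sets, the lowest at 1152 and 1154, while TRPM8 fell to 54.9 and 50.9 on its other set.

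**Figure D5:**
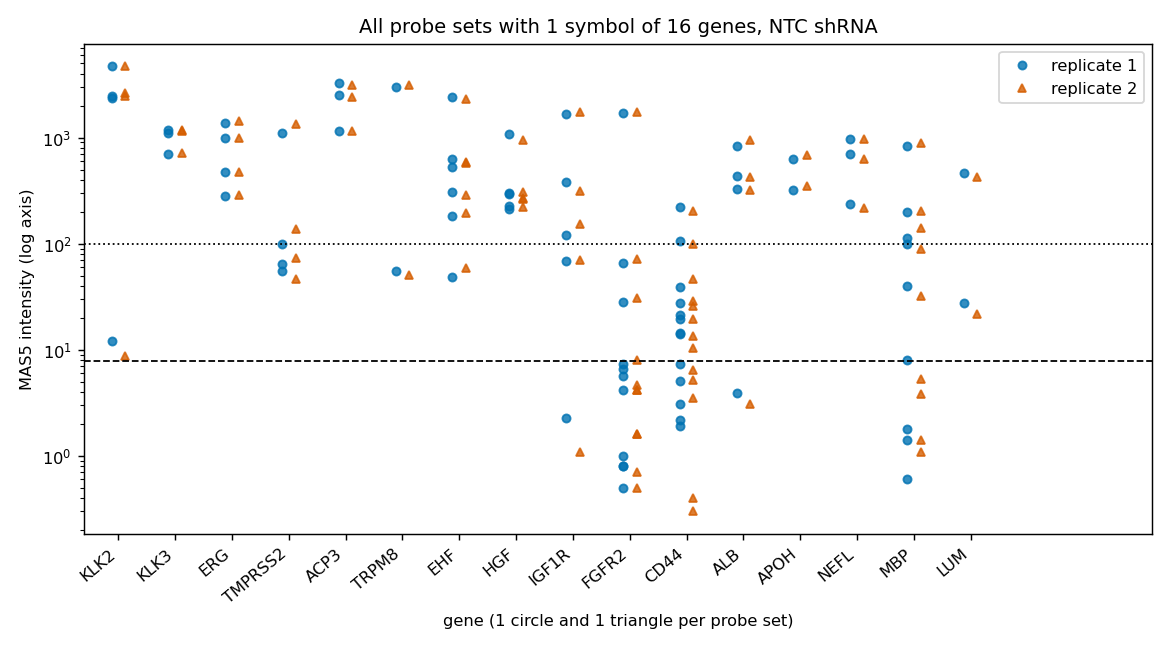
MAS5 intensity (log axis) of every probe set with 1 symbol for 16 genes on the replicate 1 array (circles) and the replicate 2 array (triangles), with the background level dashed and an intensity of 100 dotted. ERG, ACP3, HGF, APOH and NEFL lie above 100 on every set, while KLK2, FGFR2, ALB and MBP each have a set near or below the background level.

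Genes low on their own probe sets can be bright on shared ones. Of 33 list genes measured both alone and on a probe set of several symbols, 16 were brighter on the shared set, and of 12 that were split or not above background alone, 7 were above it there. A further 30 were measured on shared sets only, and 20 of those were above background, among them HSPA8 at 3941 and 4802, the Polycomb gene BMI1 at 1556 and 1408 and the catenin CTNND1 at 1352 and 1359. The cancer-testis gene SSX2 read 206 and 220.1 on a set shared with SSX2B, and the surfactant gene SFTPA1 read 597 and 586 on a set shared with SFTPA2. Which gene gave the signal of a shared set cannot be told apart.

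Few well-expressed genes differed between the replicates. The largest differences above background lay at low intensity, led by LAMA5-AS1 at 10.7 and 33.8, a log2 difference of 1.65. WFDC2 (21.9 and 9), PLCD3 (19.6 and 46.1) and MUC5AC (22.4 and 9.6) followed, with log2 differences of -1.27, 1.23 and -1.21. Among genes at 100 or more, WDR76 differed most, at 591.5 and 301, which is 1.97-fold. At the threshold itself, FOXP2 at 8.2 and 14.3 lay just inside and PPP1R18 at 8.1 and 12.4 just outside.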

How the data were processed

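The deposited values are linear probe set intensities from MAS5, a tool named in the submitters' processing notes, while its version and any detection calls are not stated there. The mean after trimming 2% of values at each end was 150.014 in both control arrays, so no further scaling was applied. RNA was amplified and biotin-labelled, per the labels' protocols. Probe sets were named through the platform annotation, which gave 41091 with 1 symbol, 1801 with several and 11721 with none, and 62 controls were left out. Of the first class 41037 matched RefSeq genes of GRCh38.p14 by Entrez ID, which changed 0 symbols. A gene took its brightest probe set by the mean of both arrays. Precision is limited by having 2 arrays, and no test was made. Computation used Python 3.11.15, pandas 2.3.3, numpy 2.4.6, scipy 1.17.1 and matplotlib 3.10.9.

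The 30 lists held 1171 genes, of which 1054 were measured, and 117 were not analysed here. The members and lists were chosen with earlier results of these data known. Named genes were drawn from the 30 brightest genes, the cell line markers with PRMT5, up to 8 of the brightest members of each list with its members not above background or split (all where at most 12, otherwise up to 8), the genes between ERG and TMPRSS2 and the 10 with the largest difference between arrays. The 10 genes with the widest ratio of probe sets were not named on that ground, since their dimmest sets lay far below background. Other named genes were chosen after their values were seen. Alternatives were other background levels, probe set rules, quantile normalization and leaving out each array.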

Additional observations from a re-analysis of the deposited data

Results flagged for a closer look

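The gene levels leave out probe sets that the platform annotation pairs with no symbol, and part of these carried signal. Of 11721 such probe sets, 4428 (37.8%) were above the background level in both control arrays and 1137 (9.70%) had an intensity of at least 100 in both. These shares were lower than those of the 41091 probe sets with 1 symbol, 63.7% and 32.5%. Of the 131 genes of the background panel, each by its brightest probe set, 1 reached 100 in both. The brightest of them read 4058 and 4284. They are unnamed here, and what they measure was not tested.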

How the results depend on the processing

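The count of 13309 genes above background, and of 715 list members, rests on where the background is set. With the 95th percentile of the other-tissue genes as background it was 6338 genes and 353 members. At an intensity of at least 100, chosen after seeing the data, it was 8326 and 432. Over genes with 1 probe set, also chosen after seeing the data, it was 4750 of 9252 and 198 of 379, a smaller set by construction. Leaving out each array in turn gave 13805 to 13902 genes and 745 members. The 99th percentile of the panel, the array median, the median over probe sets, probe sets without an _x, _s or _a suffix, and quantile normalization gave 12029, 11833, 12770, 10387 and 13303 genes, each within 1.5 times. Over the 10 alternatives, neuroendocrine genes and nuclear receptors each crossed the share of all genes under 4, surface antigens under 2, and the ETS, HOX, TGF-beta, lineage factor, secretion and steroid lists under 1 each. Without sets of those suffixes KLK2 read 10.4 (mean) and ERG 286, and as the median over its sets TMPRSS2 read 93.3. No paired analysis was possible because only 1 group was described. Low signal limits what can be called absent, and genes with means within 2-fold of the background level numbered 4371.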

Other observations

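Noncoding genes were less often detected than coding ones but included some of the brightest. Of 16521 protein-coding genes 74.1% were above background and 49.0% reached 100, and of 2658 long noncoding RNA genes 29.6% and 5.94%. After MALAT1 the brightest were FGD5-AS1 (3013 and 3065), NORAD (2342 and 2362), which binds Pumilio proteins, CHASERR (2251 and 2187) and COLCA1 (2241 and 2149). The host genes of small nucleolar RNAs SNHG32 and ZFAS1 had means of 1954 and 1828, DANCR a mean of 1821 and CRNDE a mean of 1101. Whether the lower share of noncoding genes comes with fewer probe sets per gene was not tested.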
